A study of Mus musculus with 3 samples.

Results

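Stimulated CD4+ T cells lacking IFT20 were set against stimulated WT cells, gene by gene, in the intact cells of both libraries. A cell was taken as intact where its barcode held at least 6000 unique molecular identifiers (UMIs, each marking 1 captured RNA molecule), with under 5% of them from mitochondrially encoded genes. These limits kept 14209 of the 24252 barcodes of both libraries and of 32505 barcodes in the series, namely 7414 of 10320 in the WT library (71.8%) and 6795 of 13932 in the IFT20-KO library (48.8%). The mice were males a few weeks old from lines on a C57BL/6 background, and the name of the floxed line also gives another donor strain. The labels say only WT or KO, and the study's text calls the WT mice wild-type. For all experiments its methods name only floxed mice, with and without Cre. WT is therefore taken here to mean floxed *Ift20* alleles (*Ift20* f/f) without Cre. IFT20-KO mice carried a Cre transgene driven by the *Cd4* promoter in addition, which removes some exons of the gene. The study reports IFT20 as absent in CD4+ T cells only. Because this transgene acts during thymic development, deletion in CD8+ T cells can be foreseen too, but it was not examined here. Naive CD4+ T cells enriched from spleen were cultured with anti-CD3 and anti-CD28, each at 1 μg/mL, for 24 h, and live CD3+ CD4+ cells were sorted before capture on a droplet platform. How many mice went into a library is not given in the sources used here. Each genotype is 1 library, so that genotype, animal and library cannot be told apart, no test was made, and every interval below is a 95% interval that covers counting error only. Another library of unstimulated WT cells serves only to show where a level lay before stimulation. It was taken over its 7046 barcodes of at least 2000 UMIs and under 5% mitochondrial UMIs. Those cells held a median of 4832 UMIs, against 14078 in stimulated WT cells. Levels set side by side are shares of a library's UMIs, so a lower or like level after stimulation need not mean fewer or as many molecules per cell.

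IFT20 is a small subunit of the intraflagellar transport machinery, which carries cargo along cilia, and it also sits at the Golgi. T cells have no primary cilium, and in them IFT20 takes part in carrying receptors such as the T cell receptor (TCR) to the immune synapse. Several of the genes described below belong to the interferon-γ pathway. Interferon-γ, a cytokine of T helper 1 (Th1) and natural killer cells, binds a receptor on the same or a neighbouring cell, whose kinases JAK1 and JAK2 start the transcriptional response. Promoters answer it through the gamma-activated sequence (GAS), and the factors induced next, such as IRF1, bind the interferon-stimulated response element (ISRE). Targets include guanylate-binding proteins, immunity-related GTPases and the machinery that loads peptides on MHC class I. T-bet, encoded by *Tbx21*, directs the Th1 program and is itself induced by TCR and interferon-γ signals.

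The libraries differed in depth in ways that run through the comparison. Kept cells had a median of 14078 UMIs and 3296 genes in the WT library and of 12016 UMIs and 3075 genes in the IFT20-KO library, with median mitochondrial shares of 1.25% and 1.06%. Cells of 6000 to 10000 UMIs made up 15.6% of WT and 27.6% of IFT20-KO cells, and cells above 20000 UMIs 15.7% and 6.96%. All but a few of the barcodes left out fell below 6000 UMIs, 2903 in the WT and 7131 in the IFT20-KO library. T cell identity held in both, since the 6 T cell and CD4 markers summed to 3075 CPM (UMIs per 1000000 UMIs of the library) in WT and 3139 CPM in IFT20-KO cells. *Cd4* itself gave 102 and 125 CPM of these sums, and the other markers do not set CD4+ apart from CD8+ T cells. Marker lists of other cell types were not all silent. The 13 B cell markers summed to 189 CPM in WT and 203 CPM in IFT20-KO cells, most of it from *Ighm* (145 and 162 CPM) and *Cd74* (40.5 and 37.7 CPM), with *Ms4a1*, *Pax5* and *Cd22* at 0 in both and 1 member, *Cd79b*, called higher. The 13 myeloid markers summed to 78.3 and 83.0 CPM, nearly all from *Cst3* (75.4 and 79.4 CPM), with *Lyz2* and *C1qa* among the 6 at 0 in both. The 6 natural killer markers summed to 5.17 and 3.04 CPM, mostly from *Eomes*, which was called lower, with *Ncr1* and *Klrb1c* at 0 in both. Low counts of *Cd79b* (58 and 104 UMIs) and *Trdc* (52 and 95 UMIs) were present in WT and IFT20-KO cells. *Cd8b1* held 996 and 924 UMIs, and without thinning to equal depth 10.0% of WT and 10.5% of IFT20-KO cells held 1 or more. The part of these genes in any result was not tested. Kept cells of the libraries shared 68 barcode sequences.

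*Ift20* was strongly depleted in the IFT20-KO library, which checks the labels. The gene lies on the plus strand of chromosome 11 at 78536361 to 78541737 (GRCm38). Its level was 65.2 CPM in unstimulated WT cells, 77.1 CPM (75.5 to 78.8) in stimulated WT cells and 6.79 CPM (6.25 to 7.35) in IFT20-KO cells, from 8610 and 595 UMIs. The log2 ratio was −3.51 (−3.63 to −3.39), which is 11.4-fold lower (10.5 to 12.4). At an equal depth of 6000 UMIs, 36.8% of WT and 3.97% of IFT20-KO cells held an *Ift20* UMI. Gene counts do not show where in the transcript the remaining 595 UMIs lie, so whether they come from cells with an undeleted allele or from transcripts without the deleted exons cannot be told apart.

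No gene near *Ift20* was called. Of the 26 tested genes within 500 kb, 0 were called higher and 0 lower, with a median log2 ratio of 0.038 and a range from −0.34 (*Ksr1*) to 0.44 (*Aldoc*). Over all tested genes 1.99% were called higher and 1.37% lower, so few calls would be looked for among 26 genes anywhere. The nearest, *Tnfaip1* (29 bp away) and *Tmem97* (80 bp away), had log2 ratios of 0.037 and 0.0038.

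Across the genome the libraries were close to each other. Of 31053 annotated genes, 10800 held at least 100 UMIs over both and were compared. Their log2 ratios had a median of 0.033 and an SD of 0.285 over genes, and 96.6% lay within 1.5-fold of equality. A gene was called where its ratio reached 1.5-fold and its counting interval excluded 0. By this rule 215 genes were higher (1.99% of those tested) and 148 lower (1.37%) in IFT20-KO cells. These shares are the background for every count of called list members given below. Without scaling to library totals, in UMIs per cell, the counts were 66 higher and 349 lower, because the median of all genes then shifted by −0.22, and log2 ratios are given relative to library totals throughout.

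The higher and the lower genes were of different kinds. Among the 5035 genes at 20 CPM or more, 30 were lower and 11 higher, whereas among the 1314 genes under 2 CPM 118 were higher and 51 lower. At 2-fold or more the order also turned, with 52 genes lower and 28 higher. Of the 148 lower genes, 129 were lower in each of 4 bands of UMIs per cell, against 14.8% of all tested genes. Of the 215 higher genes, 183 were higher in each band, against 26.5% of all tested genes. The bands split the same cells that gave the calls, so this agreement was partly built in and is no independent check.

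**Figure D1:**
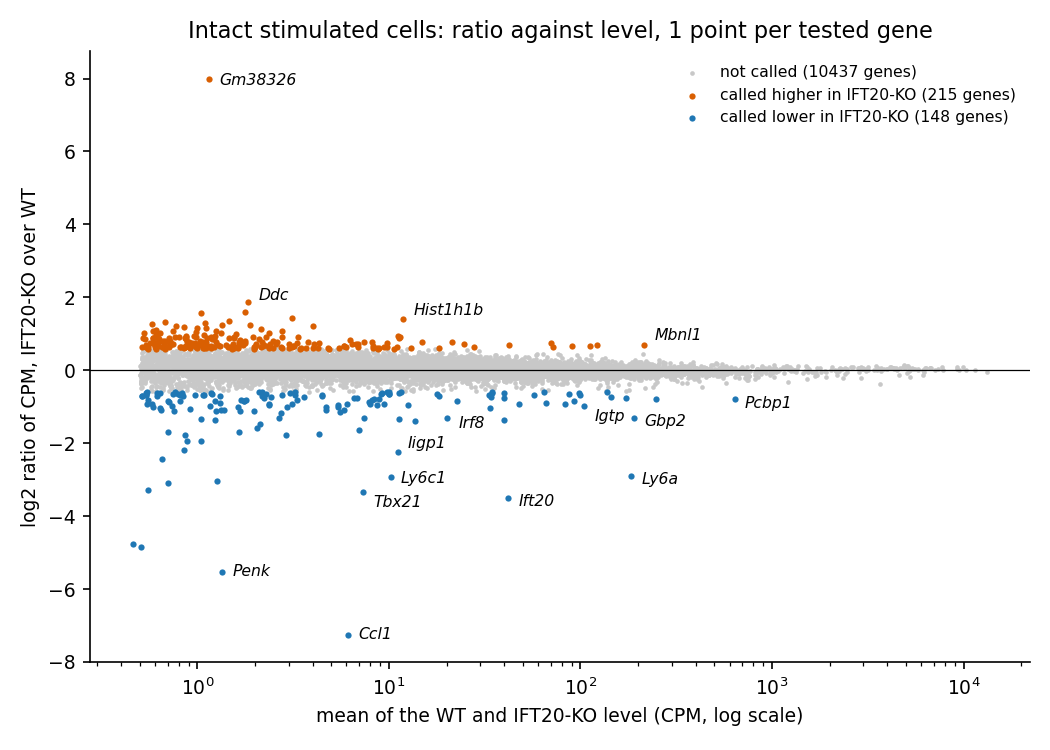
Log2 ratio of IFT20-KO over WT (vertical axis) against the mean level of both libraries in CPM (horizontal log axis), 1 point for each of 10800 genes, with called genes coloured. The cloud is narrow above 20 CPM, where *Ift20*, *Ly6a*, *Gbp2* and *Irf8* lie below it, and widens at low levels, where most of the 215 higher genes lie.

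The interferon-γ response genes formed the clearest group on the lower side. All 39 tested members of 43 listed had a ratio below 0, with 19 called lower, 0 called higher and a median log2 ratio of −0.57 against 0.033 for all genes. The lists were chosen with earlier results of these data known, and this one holds *Irf8* and *Gbp2*, which mark the comparison. Its counts therefore describe these cells and are no independent support. Of the 39, 38 were below 0 in each of the 4 bands of UMIs per cell. The list median ranged from −0.80 (UMIs per cell) to −0.42 (the wider filter of the study's methods, over 200 genes and less than 15% mitochondrial UMIs) over all settings tried. In summed counts, fewer cells with a response and less RNA in each cell cannot be told apart, and counts per cell are given further on.

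The promoters of these genes were searched for the 2 elements named above, which a list of interferon-γ targets can be foreseen to hold. Windows of 250 bases before the RefSeq start (GRCm38.p6) were searched on both strands for GAAA, any 2 bases and GAAA (ISRE) and for TTC, any 3 bases and GAA (GAS). The ISRE letters stood in 3.46% of the windows of all 27025 genes with an entry, in 272 of 8330 tested genes (3.27%), in 20 of 109 genes called lower (18.3%) and in 5 of 153 called higher (3.27%). They stood in 13 of the 29 tested interferon-γ response genes with an entry (44.8%). Of the 19 list members called lower 13 had an entry, and 8 of these held the letters (61.5%), against 5 of 16 members not called (31.2%). These 8 were all guanylate-binding protein genes (*Gbp2*, *Gbp3*, *Gbp7*) or immunity-related GTPase genes (*Igtp*, *Irgm1*, *Irgm2*, *Tgtp1*, *Tgtp2*). Windows of related genes can be nearly alike, as the stretches below show, so these are not separate cases. The GAS letters stood in 7.12% of tested genes, 11.9% of those called lower and 4.58% of those called higher. Among tested interferon-γ response genes the share was 31.0%, with 7 of 13 called lower (53.8%) and 2 of 16 not called (12.5%). Apart from *Irf1* and *Irf8*, those 7 belong to the same 2 GTPase families. Neither was found in the windows of *Tbx21*, *Ift20*, *Psmb9* and *Tap1*, which says nothing about sites elsewhere. A match describes letters and is not evidence of binding.

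Stretches of the promoters of 7 called genes are shown because they hold GAS letters alone (*Irf1*, *Irf8*) or together with ISRE letters (the others). Each is written 5′ to 3′ on the gene's strand in GRCm38.p6 coordinates, with GAS and ISRE letters in capitals.
Irf1, chr11:53769909-53769947, plus strand: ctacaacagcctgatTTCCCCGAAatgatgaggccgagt
Irf8, chr8:120736172-120736228, plus strand: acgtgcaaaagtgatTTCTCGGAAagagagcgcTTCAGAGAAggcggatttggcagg
Gbp7, chr3:142530215-142530307, plus strand: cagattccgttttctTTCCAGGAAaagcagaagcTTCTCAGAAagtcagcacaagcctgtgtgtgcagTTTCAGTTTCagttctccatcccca
Igtp, chr11:58199496-58199546, plus strand: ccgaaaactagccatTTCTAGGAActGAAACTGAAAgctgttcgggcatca
Irgm2, chr11:58214887-58214937, plus strand: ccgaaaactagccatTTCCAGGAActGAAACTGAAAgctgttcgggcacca
Tgtp1, chr11:48992299-48992349, minus strand: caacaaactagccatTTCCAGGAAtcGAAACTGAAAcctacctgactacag
Tgtp2, chr11:49064258-49064308, minus strand: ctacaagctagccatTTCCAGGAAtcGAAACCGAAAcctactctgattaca
The 4 immunity-related GTPase genes *Igtp*, *Irgm2*, *Tgtp1* and *Tgtp2* share the same arrangement of a GAS followed closely by an ISRE.

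Transcription factors induced by interferon-γ were lower in IFT20-KO cells. *Irf1*, an early target that acts on other promoters, was at 187 CPM in unstimulated WT, 109 CPM in stimulated WT and 57.4 CPM in IFT20-KO cells, with a log2 ratio of −0.93 (−0.97 to −0.88). *Irf8*, on chromosome 8 at 120736358 to 120756694, was at 3.48, 57.3 and 22.4 CPM, with a log2 ratio of −1.36 (−1.43 to −1.28) or 2.56-fold lower. In CPM the stimulated WT level was thus above the unstimulated one for *Irf8* and below it for *Irf1*. The IFT20-KO level was below that of stimulated WT cells for both. Without thinning to equal depth, 54.0% of unstimulated and 62.7% of stimulated WT cells held an *Irf1* UMI. *Nlrc5*, the transactivator of MHC class I genes, had a log2 ratio of −0.79.

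Effector GTPases showed the largest ratios of the list. *Gbp2*, a guanylate-binding protein gene on chromosome 3 at 142620602 to 142638008, was at 52.4 CPM in unstimulated WT, 271 CPM in stimulated WT and 110 CPM in IFT20-KO cells, with a log2 ratio of −1.30 (−1.33 to −1.27) or 2.46-fold lower. *Igtp*, encoding an immunity-related GTPase, was at 103, 139 and 70.4 CPM, with a log2 ratio of −0.99 (−1.03 to −0.94). *Iigp1*, of the same GTPase family, was at 11.05, 18.3 and 3.87 CPM, with a log2 ratio of −2.24 (−2.41 to −2.08). Each of these 3 was higher in stimulated than in unstimulated WT cells, with the IFT20-KO level of *Igtp* and *Iigp1* below that of unstimulated cells and that of *Gbp2* above it. *Irgm1* was at 34.8, 19.8 and 7.55 CPM, with a log2 ratio of −1.39 (−1.52 to −1.27). *Tgtp2* was at 53.6, 10.5 and 3.41 CPM, with a log2 ratio of −1.63 (−1.82 to −1.44), and the near-identical *Tgtp1*, whose reads may be split with it, had −1.78. Both were at a lower level in stimulated than in unstimulated WT cells and at the lowest in IFT20-KO cells. The remaining guanylate-binding proteins had log2 ratios of −1.94 (*Gbp6*), −1.68 (*Gbp10*), −0.95 (*Gbp7*), −0.93 (*Gbp4*) and −0.70 (*Gbp3*), with *Gbp5* at −0.34 and not called, and *Gbp6* and *Gbp10* are so alike that reads may be shared between them.

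Genes for peptide processing and MHC class I showed smaller ratios. *Psmb9*, an immunoproteasome subunit, was at 220 CPM in unstimulated WT, 179 CPM in stimulated WT and 108 CPM in IFT20-KO cells, with a log2 ratio of −0.72 (−0.76 to −0.69). *Tap1*, the peptide transporter, was at 132, 122 and 76.3 CPM, with a log2 ratio of −0.68 (−0.72 to −0.64). Below the 1.5-fold limit lay *Psmb8* (−0.45), *H2-D1* (−0.28), *H2-K1* (−0.23), *Psmb10* (−0.23), *B2m* (−0.11) and *Cd274*, encoding PD-L1 (−0.10). *Socs1*, the feedback inhibitor of the JAKs, had a log2 ratio of −0.37 and was not called.

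**Figure D2:**
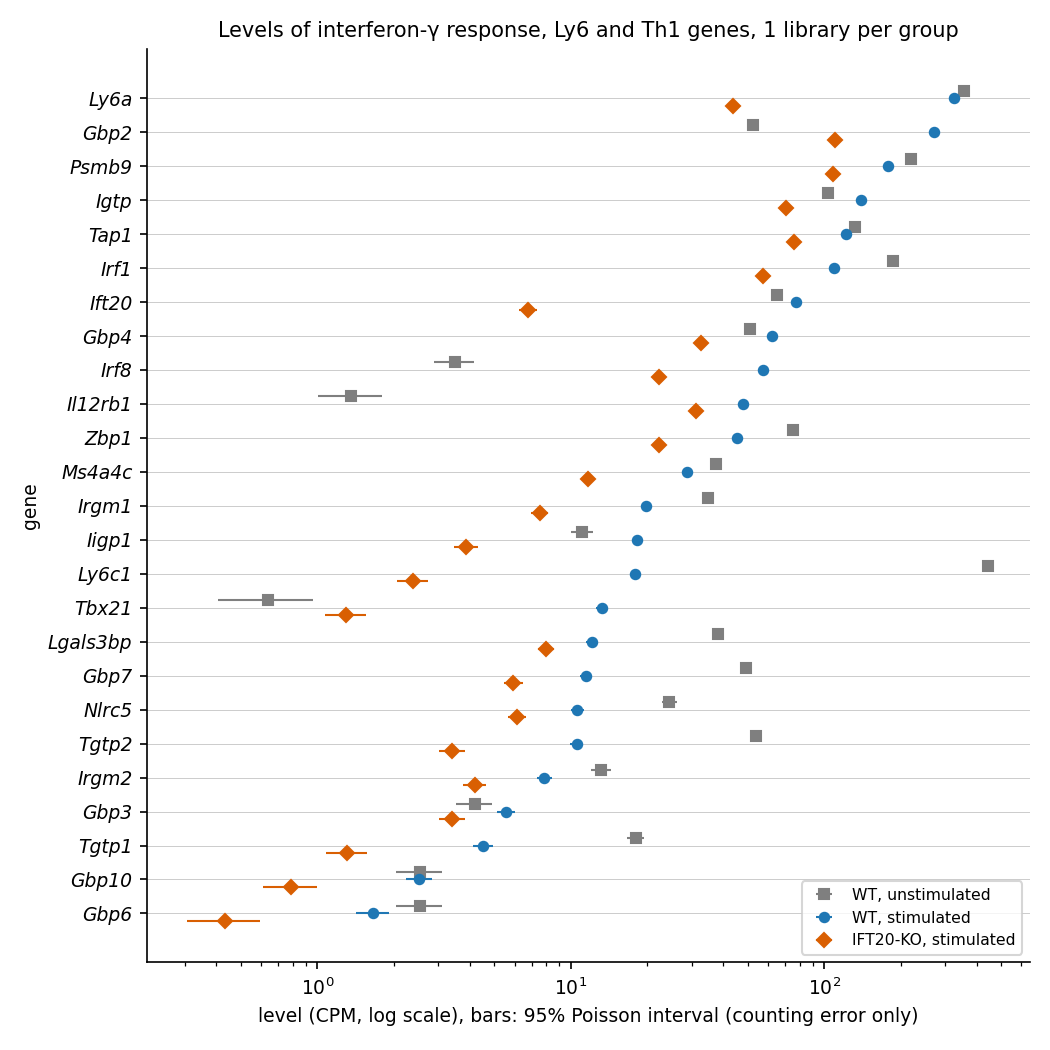
Levels of 25 interferon-γ response, Ly6, Th1 and related genes in CPM (horizontal log axis) in unstimulated WT (squares), stimulated WT (circles) and stimulated IFT20-KO (diamonds) cells, with bars for the 95% Poisson interval. Only genes called lower were drawn, so the diamond lies left of the circle for each of them by choice. The square lies on either side of the circle, from *Ly6c1* (442 against 18.0 CPM) to *Tbx21* (0.640 against 13.3 CPM).

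The interferon-γ receptor genes, *Jak1* and *Jak2*, upstream of these targets, differed little, and RNA of the ligand was found in very few cells. The log2 ratios were 0.26 for *Ifngr1*, 0.10 for *Ifngr2*, 0.19 for *Jak1*, −0.08 for *Jak2* and −0.02 for *Stat2*, none of them called. The wider list of interferon signalling genes was not unchanged. Of its 19 tested members, 6 were called lower, *Irf8* among them, and 0 higher. Over all tested genes 1.37% were called lower and 1.99% higher. *Irf9* had a log2 ratio of −0.54 and was not called. *Ifng* itself held 252 UMIs in WT and 24 UMIs in IFT20-KO cells, with a log2 ratio of −3.04 (−3.71 to −2.44). These UMIs came from 26 WT and 9 IFT20-KO cells, and 236 of the 252 WT UMIs came from 10 cells, so that the ratio rests on a handful of cells.

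The genes of the type I interferon and antiviral list were shifted less. Of 40 tested members, 11 were called lower and 0 higher, with a median log2 ratio of −0.24, and 23 were below 0 in each band. *Zbp1*, a sensor of nucleic acids, was at 75.5 CPM in unstimulated WT, 45.4 CPM in stimulated WT and 22.2 CPM in IFT20-KO cells, with a log2 ratio of −1.03 (−1.11 to −0.96). *Isg15*, a ubiquitin-like modifier, was at 53.7, 10.5 and 4.25 CPM, with a log2 ratio of −1.31 (−1.48 to −1.14). *Ms4a4c*, a membrane protein gene, was at 37.4, 28.7 and 11.7 CPM, with a log2 ratio of −1.30 (−1.40 to −1.20). Each of these 3 was highest in unstimulated WT and lowest in IFT20-KO cells. Members on the other side of 0, none of them called, were *Herc6* (0.52), *Ifi208* (0.44) and *Ifit2* (0.32).

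Among Th1 genes the ratio was largest for *Tbx21*. Of 18 tested members of the Th1 list 7 were called lower and 1 higher, with a median log2 ratio of −0.41. *Tbx21*, on the minus strand of chromosome 11 at 97098071 to 97115331, was at 0.640 CPM in unstimulated WT, 13.3 CPM in stimulated WT and 1.30 CPM in IFT20-KO cells, from 23, 1481 and 114 UMIs. Its log2 ratio was −3.35 (−3.64 to −3.08), or 10.2-fold lower. At 6000 UMIs per cell, 443 WT cells (5.98%) and 42 IFT20-KO cells (0.618%) held a UMI of *Tbx21*, and without thinning 0.185% of unstimulated WT cells did at a median of 4832 UMIs. The IFT20-KO share was thus low but above that of unstimulated cells, which were also shallower. No cell type without *Tbx21* RNA was examined to give a background level. The markers of red cells and platelets summed to 0.152 CPM in WT and 0.0684 CPM in IFT20-KO cells, too low for those cells to serve.

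Other Th1 genes differed unevenly. *Il12rb1*, a subunit of the interleukin-12 receptor, was at 1.36 CPM in unstimulated WT, 48.0 CPM in stimulated WT and 31.3 CPM in IFT20-KO cells, with a log2 ratio of −0.62 (−0.69 to −0.55). *Il12rb2*, the inducible subunit, held 157 and 32 UMIs in stimulated WT and IFT20-KO cells, with a log2 ratio of −1.95 (−2.54 to −1.39). *Eomes*, a T-box factor related to T-bet, had a log2 ratio of −1.01, *Gzmb* −0.68 and *Cxcr3* −0.64. By contrast *Ccl4*, a chemokine gene listed at 0 UMIs in unstimulated WT cells, was at 157 CPM in stimulated WT and 156 CPM in IFT20-KO cells, with a log2 ratio of −0.00 (−0.04 to 0.03). The chemokine gene *Xcl1* was called higher at 0.59, but its UMIs lay in few cells. In WT, 626 of 942 came from 10 cells, and in IFT20-KO 358 of 1113 did. *Stat4*, which relays the interleukin-12 signal, had −0.18 and *Tnf* −0.28, neither called. The genes called lower were thus *Tbx21*, *Ifng*, both interleukin-12 receptor subunits, *Eomes*, *Gzmb* and *Cxcr3*, with no chemokine gene among them. *Il12rb1* was −0.48 with the wider filter and *Xcl1* 0.37 in UMIs per cell, both short of 1.5-fold.

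Genes of other helper fates had medians near or above 0. Of 10 tested Th2 genes, 3 were called lower and 0 higher, with a median log2 ratio of −0.02. The cytokine *Il4* held 140 and 13 UMIs, 135 of the 140 from 10 WT cells, *Maf* had a log2 ratio of −0.71, and *Areg* rested on few cells too. *Gata3*, the Th2 master regulator, had −0.47 and was not called. Among 12 tested genes of the Th17, follicular and regulatory fates 1 was called higher and 0 lower, with a median of 0.28. *Foxp3*, which encodes the regulatory T cell factor (log2 ratio 0.46), and *Ctla4* (0.30) were not called.

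Genes of the Ly6 family, small proteins anchored in the membrane by a lipid, gave some of the largest ratios at high level. *Ly6a*, encoding Sca-1 on the minus strand of chromosome 15 at 74994877 to 74998031, was at 355 CPM in unstimulated WT, 325 CPM (322 to 328) in stimulated WT and 43.8 CPM (42.4 to 45.2) in IFT20-KO cells, from 36290 and 3838 UMIs in the stimulated libraries. The log2 ratio was −2.89 (−2.94 to −2.85), or 7.43-fold lower. *Ly6c1*, 45987 bp from *Ly6a*, was at 442, 18.0 and 2.38 CPM, with a log2 ratio of −2.92 (−3.13 to −2.71). *Ly6a* thus had a like level in unstimulated and stimulated WT cells whereas *Ly6c1* did not, and both were over 7 times lower in IFT20-KO than in stimulated WT cells. Of the 9 tested genes within 500 kb of *Ly6a*, *Ly6k* was called higher, at 1.34 and 2.94 CPM with a log2 ratio of 1.14, and *Ly6e* had −0.29 and was not called. Members of this family share sequence, and reads may be split among them.

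Early genes induced through the TCR were mostly slightly lower. Of 34 tested, 27 had a ratio below 0 and 21 were below 0 in each band, but only 2 were called lower and 1 higher, with a median log2 ratio of −0.20. *Cd69*, an early surface marker of activation, was at 112 CPM in unstimulated WT, 275 CPM in stimulated WT and 213 CPM in IFT20-KO cells, with a log2 ratio of −0.37 (−0.40 to −0.34) that was not called. *Nr4a1*, a nuclear receptor gene read as a measure of TCR signal, was at 28.1, 161 and 117 CPM, with a log2 ratio of −0.46, also not called. *Egr2* had −0.43, *Cd40lg* −0.47, *Myc* −0.25, *Il2ra* −0.05, *Irf4* −0.00 and *Tnfrsf9* 0.06. Every one of these 8 thus stayed within 1.5-fold.

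*Il2* had a smaller ratio within bands of UMIs per cell than over all cells. It was at 0.473 CPM in unstimulated WT, 119 CPM in stimulated WT and 66.6 CPM in IFT20-KO cells, with a log2 ratio of −0.83 (−0.88 to −0.79), which was called. Within the bands from 6000 UMIs upward, however, the log2 ratio was −0.25, −0.45, −0.57 and −0.50, so that in none did it reach 1.5-fold. At an equal depth of 6000 UMIs, 13.4% of WT and 11.1% of IFT20-KO cells held an *Il2* UMI. The means there were 0.585 and 0.323 UMIs per cell, so thinning alone did not remove the difference. *Tnfsf11*, encoding RANKL, was the early gene called higher, at 21.9 CPM in WT and 33.9 CPM in IFT20-KO cells with a log2 ratio of 0.63, which was 0.40 and short of 1.5-fold in UMIs per cell. *Ccl1*, a chemokine gene, held 1356 UMIs in WT and 7 UMIs in IFT20-KO cells (log2 ratio −7.25, −8.57 to −6.20), but 1319 of the 1356 came from 10 of 47 WT cells with any. A few WT cells thus made this ratio, as they did for *Ifng* and *Il4*.

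Some markers of antigen-experienced cells were lower and naive markers went both ways. Of 15 tested memory markers, 4 were called lower and 0 higher, with a median log2 ratio of −0.36. *Cd44*, an adhesion receptor raised on experienced cells, was at 15.1 CPM in unstimulated WT, 11.03 CPM in stimulated WT and 7.08 CPM in IFT20-KO cells, with a log2 ratio of −0.64 (−0.78 to −0.50). *Lgals1*, encoding galectin 1, was at 318, 107 and 68.4 CPM, with a log2 ratio of −0.64 (−0.68 to −0.59), and *S100a6* had −1.57. Of 32 tested naive and quiescence genes 2 were called lower and 1 higher, with a median of −0.01. Over all tested genes 1.37% were called lower and 1.99% higher, so these few calls do not set the list apart. *Igfbp4*, a secreted binding protein gene of resting naive T cells, was at 977, 87.3 and 138 CPM, with a log2 ratio of 0.66 (0.62 to 0.70). *Dapl1*, marked by its high level in resting T cells, was at 441, 86.6 and 46.2 CPM, with a log2 ratio of −0.91 (−0.96 to −0.85). Both were far lower in stimulated than in unstimulated WT cells, and in IFT20-KO cells *Dapl1* was below and *Igfbp4* above the stimulated WT level, while *Ccr7* (0.18) and *Tcf7* (−0.00) were not called. Cells that still held naive transcripts were common in both libraries, since 46.4% of WT and 51.1% of IFT20-KO cells had at least 3 UMIs of a set of naive markers, *Klf2*, *Il7r*, *Ccr7* and *S1pr1* among them, at 6000 UMIs. Without those cells the log2 ratio was −0.86 for *Dapl1* and 0.80 for *Igfbp4*. *Cd44* (−0.29) was not called with the wider filter, nor was *Igfbp4* (0.28) with equal weights over bands of UMIs per cell.

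On the higher side, histone genes were called far more often than genes at large. Of 30 tested genes of the histone clusters, 14 were called higher and 0 lower, with a median log2 ratio of 0.51, which was 0.28 in UMIs per cell without scaling. *Hist1h1b*, a linker histone gene, was at 1.20 CPM in unstimulated WT, 6.50 CPM in stimulated WT and 17.1 CPM in IFT20-KO cells, with a log2 ratio of 1.39 (1.26 to 1.52). *Hist1h1e*, another linker histone, was at 38.4, 32.6 and 52.5 CPM, with a log2 ratio of 0.69 (0.63 to 0.75), which was 0.47 and no longer called in UMIs per cell. Both linker histones were thus above the stimulated WT level, and *Hist1h2ab* (1.59) and *Hist1h1a* (1.20) gave larger ratios at lower levels. Copies of core histone genes share their coding sequence, so reads may be split among them.

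Of 51 tested G2/M genes, 6 were called higher and 0 lower, and of 43 S phase genes 1 higher and 0 lower. Over all tested genes 1.99% were called higher, so the S phase count does not stand apart. The G2/M and S phase medians of 0.24 and 0.21 became 0.02 and −0.01 in UMIs per cell, so their size depended on the scaling. Within the bands from 6000 UMIs upward, the medians were 0.25, 0.33, 0.53 and 0.05 for G2/M genes. For S phase genes they were 0.32, 0.37, 0.44 and 0.06. *Mki67*, the proliferation marker, was at 1.78 CPM in unstimulated WT, 7.26 CPM in stimulated WT and 12.2 CPM in IFT20-KO cells, with a log2 ratio of 0.76 (0.62 to 0.89). *Top2a* had 0.28 and *Cdk1* 0.16, neither called. Cells with at least 2 UMIs of *Mki67* and *Top2a* together at equal depth made up 4.26% of WT and 5.24% of IFT20-KO cells. *Mki67* thus had a larger ratio than these 2, from few transcripts per cell, and was at 0.53, short of 1.5-fold, in UMIs per cell.

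Other genes among the highest ratios at 20 CPM or more were not members of one pathway. *Psmg3*, a proteasome assembly chaperone, was at 10.1 CPM in unstimulated WT, 15.9 CPM in stimulated WT and 26.9 CPM in IFT20-KO cells, with a log2 ratio of 0.76 (0.67 to 0.85). *Nrn1*, encoding neuritin, was at 1.78, 52.4 and 87.6 CPM, with a log2 ratio of 0.74 (0.69 to 0.79). *Serpine2*, a secreted protease inhibitor, was at 0.640, 18.8 and 30.7 CPM, with a log2 ratio of 0.71 (0.63 to 0.79). The order for these 3 was unstimulated WT, stimulated WT and IFT20-KO cells, from low to high. *Marcksl1*, a membrane and actin adaptor, did likewise at 9.02, 93.4 and 150 CPM, with a log2 ratio of 0.68, as did the tetraspanin gene *Cd81* at 23.9, 70.0 and 110 CPM, with 0.66. *Mbnl1*, a splicing regulator, was instead at 250 CPM in unstimulated WT, 163 CPM in stimulated WT and 266 CPM in IFT20-KO cells, with a log2 ratio of 0.70 (0.68 to 0.73), close to its unstimulated level. The creatine kinase *Ckb* had 0.63 and *Mxd4*, a partner of MAX, 0.60. In UMIs per cell without scaling all 8 were short of 1.5-fold, at 0.38 (*Mxd4*) to 0.54 (*Psmg3*).

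The remaining intraflagellar transport genes were not lower with *Ift20*. Of 21 tested genes of the list, *Ift20* was the only one called lower, 2 were called higher, and the median log2 ratio was 0.22, which was −0.01 in UMIs per cell. *Ift80* was at 26.6 CPM in unstimulated WT, 10.3 CPM in stimulated WT and 15.7 CPM in IFT20-KO cells, with a log2 ratio of 0.60 (0.49 to 0.72), and *Ift74* at 1.45, 5.19 and 8.56 CPM, with 0.72 (0.56 to 0.88). In UMIs per cell *Ift80* was at 0.38, and the shift of −0.22 that applies to every gene there also takes *Ift74* short of 1.5-fold, so that neither was then called higher. *Ift88* (0.23), *Ift57* (0.18), *Ift27* (0.16) and *Ift52* (−0.04), which encode further subunits of the IFT-B complex that holds IFT20, were not called.

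Signalling and metabolic genes, the questions the study asked of these cells, lay mostly within 1.5-fold, as did 96.6% of all tested genes. Over all tested genes 1.99% were called higher and 1.37% lower, so by the number of calls these lists did not stand apart. Of 27 tested glycolysis genes 1 was called lower and 1 higher, with a median of −0.07. Small ratios below 0 were common among them, in 19 of the 27. Of 26 followed over the bands, 12 were below 0 in each, against 14.8% of all tested genes. Above 0 in each band were 4, against 26.5%. In the barcodes left out, 25 of these genes had a median of 0.04. *Slc16a3*, the lactate exporter MCT4, was at 2.17 CPM in unstimulated WT, 70.5 CPM in stimulated WT and 43.7 CPM in IFT20-KO cells, with a log2 ratio of −0.69 (−0.75 to −0.63). *Slc2a1*, encoding the glucose transporter GLUT1, was at 31.4, 62.7 and 49.5 CPM, with a log2 ratio of −0.34 (−0.40 to −0.29), and was not called. *Ldha*, lactate dehydrogenase A, was at 737, 2280 and 2090 CPM, with a log2 ratio of −0.13. All 3 were higher in stimulated than unstimulated WT cells, and the exporter alone of them passed 1.5-fold between the genotypes. *Pgk1* had −0.19, *Eno1* −0.34, *Hk2* −0.34 and *Ldhb* 0.44, none of them called.

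Of 35 pyruvate and tricarboxylic acid cycle genes 1 was called higher and 0 lower (median 0.04), and of 60 genes of the PI3K, AKT and mTOR pathway 1 higher and 0 lower (median 0.06). *Pik3ca*, a catalytic subunit of PI3K, was at 10.0 CPM in WT and 9.29 CPM in IFT20-KO cells, with a log2 ratio of −0.11 (−0.24 to 0.02). *Akt1* was at 22.2 and 18.4 CPM, with −0.27 (−0.36 to −0.18), and *Mtor* at 13.8 and 14.1 CPM, with 0.03 (−0.08 to 0.14). *Mpc1*, a subunit of the mitochondrial pyruvate carrier, was at 170 and 158 CPM, with −0.11 (−0.14 to −0.08). Of 45 genes that act close to the TCR, 1 was called lower, the signalling adaptor gene *Sh2d1a*, at 106 CPM in unstimulated WT, 29.2 CPM in stimulated WT and 16.3 CPM in IFT20-KO cells, with −0.84 (−0.93 to −0.75). *Cd4* had 0.29 and was not called. In 81 ribosomal protein, 77 respiratory chain and 77 mitochondrial ribosome genes, 0 were called in either direction, and their medians were 0.04, −0.02 and −0.03.

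**Figure D3:**
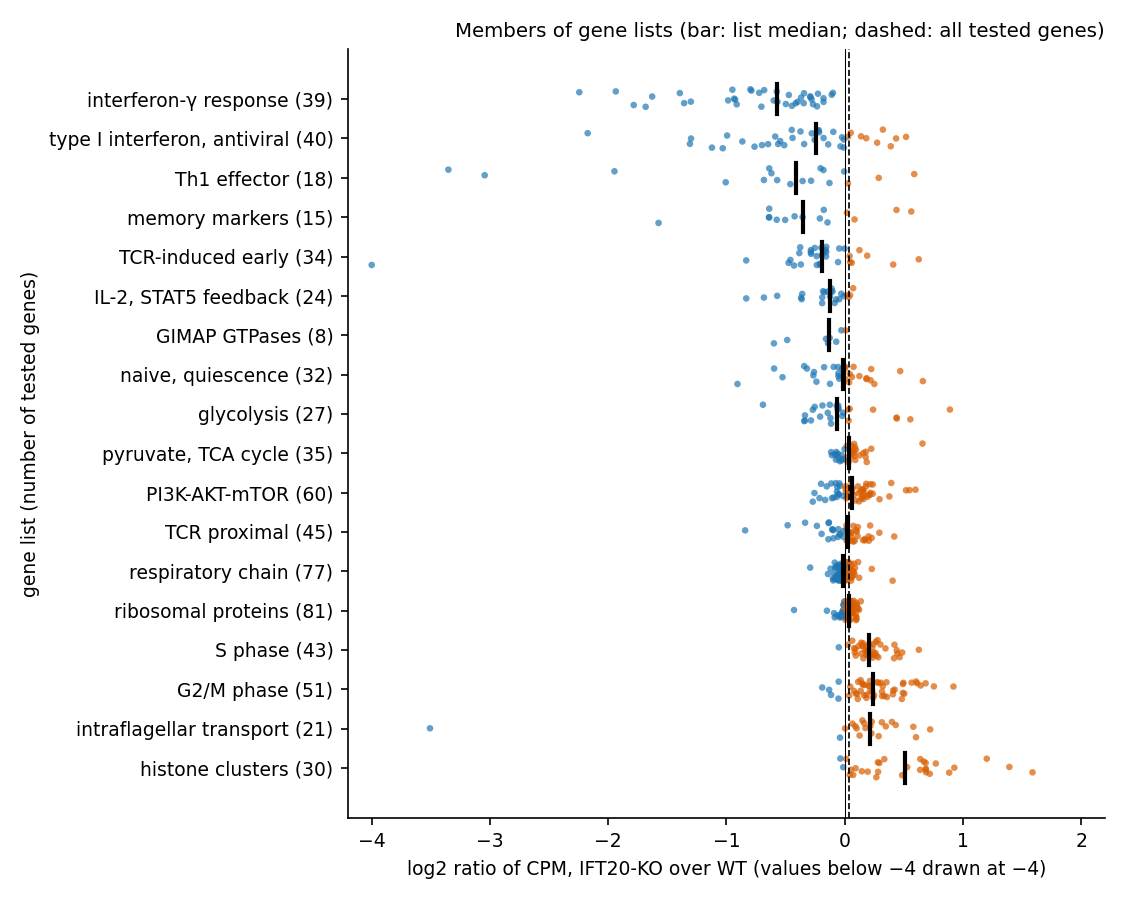
Log2 ratio of CPM, IFT20-KO over WT (horizontal axis), for the tested members of 18 gene lists (points, blue below and orange above 0), with a bar at each list's median and a dashed line at the median of all tested genes. The interferon-γ response list lies wholly below 0 (median −0.57), the histone clusters mostly above (median 0.51), and ribosomal, respiratory chain, TCR proximal and PI3K-AKT-mTOR genes around the dashed line.

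Since IFT20-KO cells held fewer UMIs, ratios were also taken within bands of UMIs per cell, of 6000 to 10000, 10000 to 15000, 15000 to 20000 and over 20000. *Ift20* hardly varied, with log2 ratios of −3.49, −3.53, −3.60 and −3.63 from the lowest band to the highest. The ratios of *Ly6a* were −3.34, −3.22, −2.79 and −2.63, and those of *Gbp2* −1.73, −1.54, −1.34 and −1.18. Both were thus farther from 0 in cells with fewer UMIs, and so was *Igtp* (−1.43, −1.27, −0.91 and −0.81). *Irf8* did not follow this order, with −1.23, −1.36, −1.47 and −1.30. For *Gbp2* it was the WT level that varied most, at 600, 302, 214 and 186 CPM against 181, 104, 84.3 and 82.2 CPM in IFT20-KO cells. The median of the interferon-γ response list was −0.85, −0.82, −0.45 and −0.54 over the bands.

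Higher genes varied over the bands too. *Hist1h1b* had log2 ratios of 1.81, 1.73, 1.59 and 0.52, and *Mki67* went from 1.99 in the lowest to 0.31 in the highest band, so that for both the ratio was smallest in cells above 20000 UMIs. *Nrn1* went from 1.20 to 0.64, whereas *Mbnl1* stayed between 0.59 and 0.71. No gene drawn in the plot of ratios by band changed direction.

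**Figure D4:**
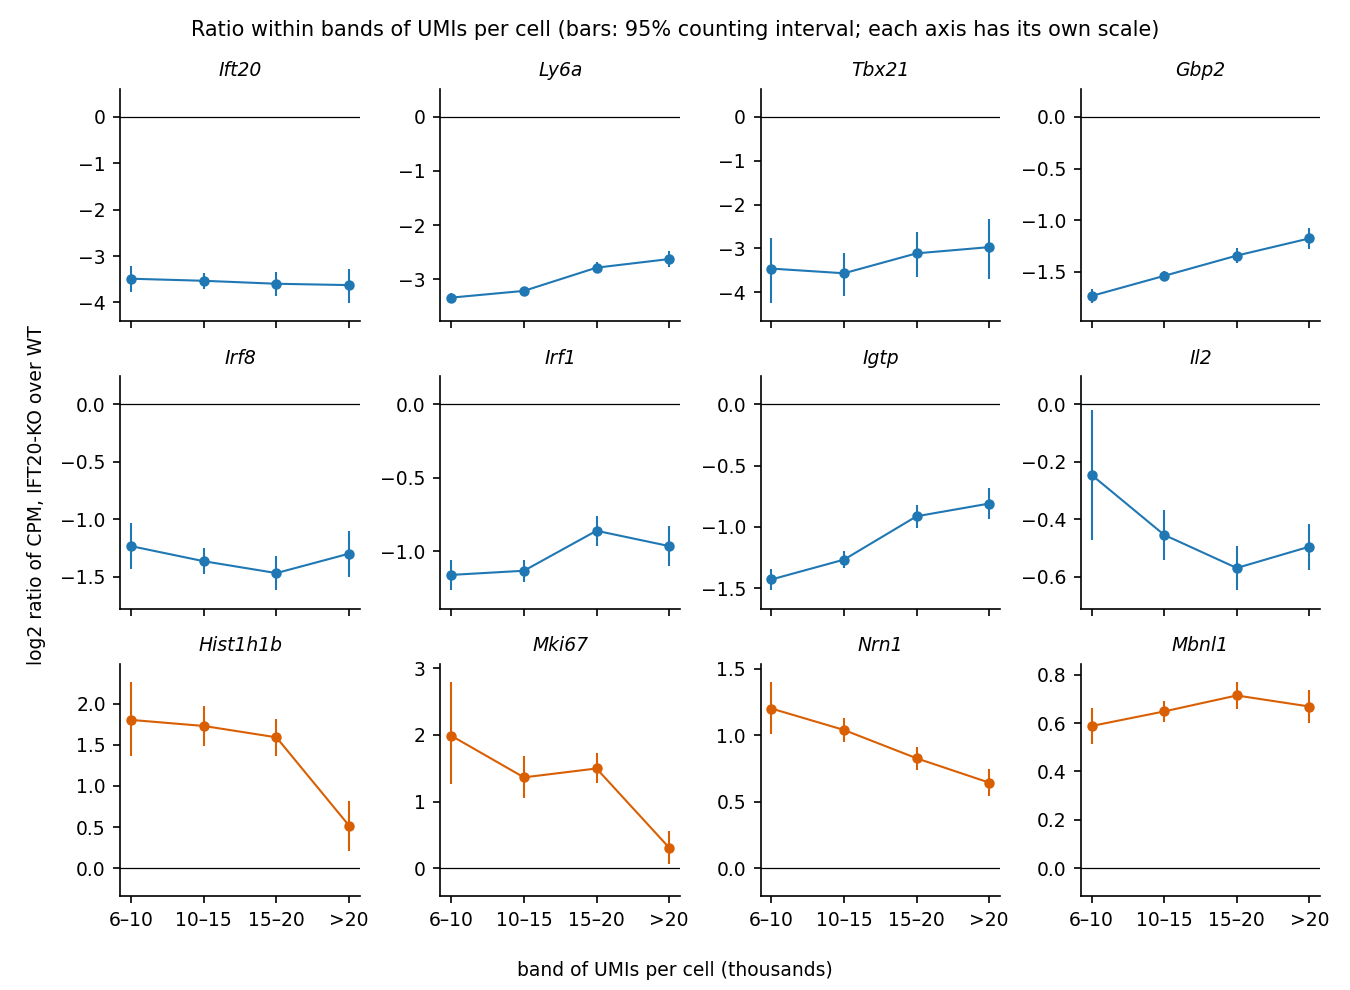
Log2 ratio of IFT20-KO over WT (vertical axis, own scale in each panel) for 12 genes within 4 bands of UMIs per cell (horizontal axis, in units of 1000 UMIs), with bars for the 95% counting interval. *Ift20* is flat near −3.5, *Ly6a*, *Gbp2* and *Igtp* come closer to 0 with more UMIs, and *Hist1h1b* and *Mki67* are smallest above 20000 UMIs.

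Counts per cell show how the lower levels were spread over cells. Each cell was thinned to 6000 UMIs, so the cells have equal depth. *Ly6a* UMIs were present in 46.4% of WT and 12.8% of IFT20-KO cells, with means of 2.22 and 0.292 UMIs per cell, and the cell at the 90th percentile held 7 and 1. *Gbp2* UMIs were present in 43.8% and 31.1% of cells, with means of 1.85 and 0.732, and 5 and 2 at the 90th percentile. *Irf1* UMIs were present in 40.7% and 26.8%, with means of 0.717 and 0.371, and 2 and 1 at the 90th percentile. For *Gbp2* and *Irf1*, then, many IFT20-KO cells held a transcript, and cells with many transcripts were fewer. *Irf8* UMIs were present in 19.8% and 9.48% of cells, with means of 0.338 and 0.138. *Mbnl1* ran the other way, with UMIs in 58.7% of WT and 76.1% of IFT20-KO cells and means of 1.01 and 1.63. Free RNA in the droplets can add to such shares, and its part was not tested.

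**Figure D5:**
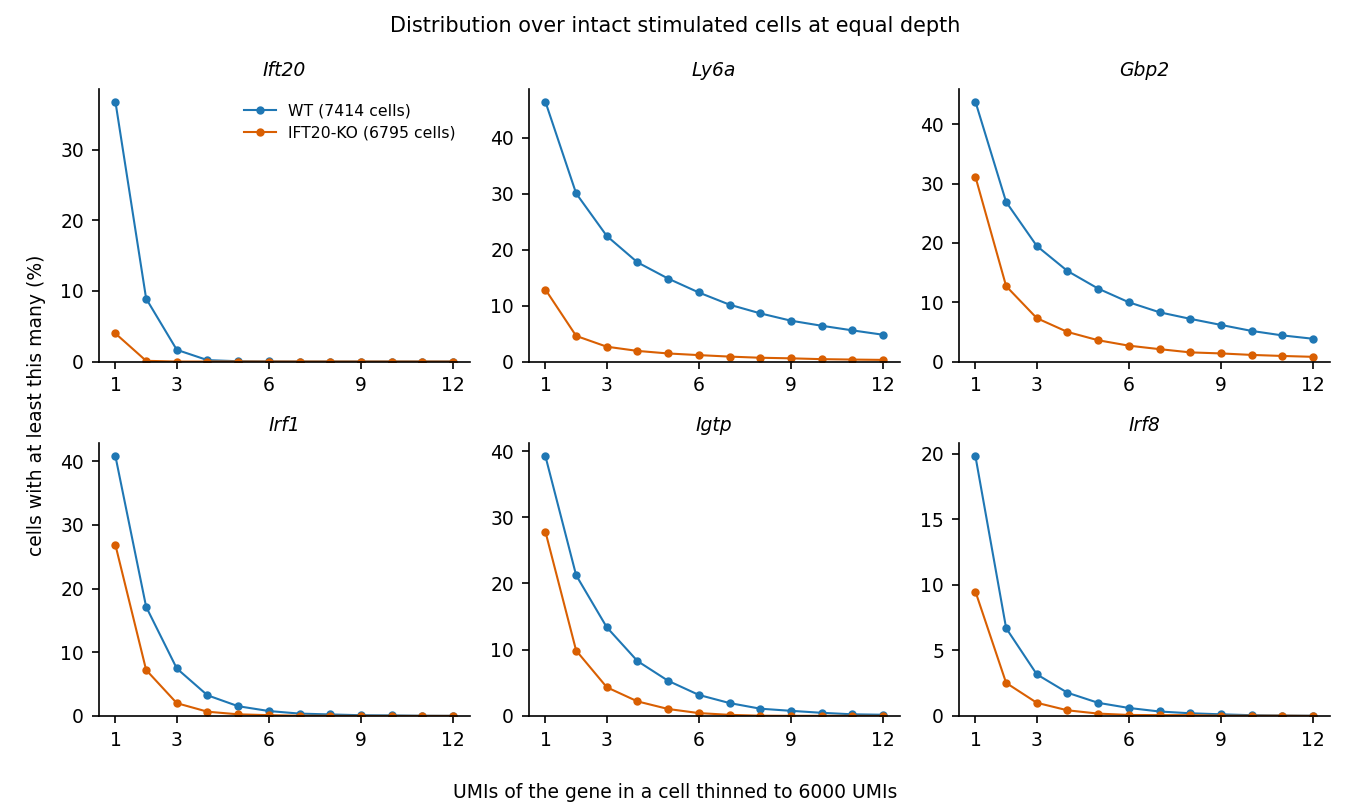
Share of cells (vertical axis, percent, own scale in each panel) with at least a given number of UMIs of a gene (horizontal axis) after thinning each cell to 6000 UMIs, for 7414 WT cells (blue) and 6795 IFT20-KO cells (orange). The IFT20-KO curve lies below the WT curve at 1 UMI for each of the 6 genes, by the most for *Ift20* (3.97% against 36.8%) and *Ly6a* (12.8% against 46.4%).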

How the data were processed

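The authors deposited, per library, a filtered matrix of UMI counts per gene and cell barcode. The matrix header names Cell Ranger 3.1.0, and the submitters' processing notes name the mm10 genome. No column went unused for want of a sample. Barcodes with at least 6000 UMIs and under 5% mitochondrial UMIs were kept (unstimulated library, 2000 UMIs), with no doublet caller, since 131 WT and 50 IFT20-KO cells held over 30000 UMIs and leaving them out is among the alternatives. UMIs were summed per gene and library (111618077 in WT, 87692600 in IFT20-KO cells) and divided by the total to give CPM. Genes with at least 100 UMIs over both stimulated libraries were compared, with exact Poisson intervals for levels and exact binomial intervals for ratios. Steps were tested on simulated data. With 1 library per group no test was run. Genes named are those that mark the comparison (*Ift20*, *Ly6a*, *Tbx21*, *Irf8*, *Gbp2*), the 12 highest and 12 lowest ratios at 20 CPM or more, up to 4 members of each gene list with the largest ratio at 10 CPM or more, and genes the study discusses. Some genes are not reported here. Any further gene named was picked after its values were seen, as a list member known for its role or for its place beside another gene. The comparison and the lists were chosen with earlier results of these data known. Gene positions came from the GENCODE annotation of GRCm38, matched by gene identifier for 10791 of the 10800 genes, and promoter windows from RefSeq (GRCm38.p6), matched by symbol. Python 3.11.15, numpy 2.4.6, scipy 1.17.1, pandas 2.3.3 and matplotlib 3.10.9 were used.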

Additional observations from a re-analysis of the deposited data

How the results depend on the processing

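No paired analysis was possible because each group is 1 library. Over the alternatives tried, none of the 48 called genes that the rule names changed direction, and 552 of 720 values stayed within the counting interval. *Ift20* ranged from −3.57 to −3.48 on the log2 scale, and was −3.73 in UMIs per cell. Higher genes numbered 975 with the study's filter (more than 200 genes, under 15% mitochondrial UMIs), 324 with equal weights over bands of UMIs per cell, 66 in UMIs per cell, 38 with at least 1000 UMIs per gene, 402 with at least 10, and 28 at 2-fold. Lower genes numbered 349 in UMIs per cell, 61 with at least 1000 UMIs per gene, 246 with at least 10, and 52 at 2-fold. Of called genes, the higher share was 59.2% as reported, 89.3% with the study's filter, 15.9% in UMIs per cell, 38.4% with at least 1000 UMIs per gene and 35.0% at 2-fold. With the study's filter, 106 of the 148 lower and 210 of the 215 higher genes were called again. Fewer recurred after thinning to 6000 UMIs per cell, 99 lower and 93 higher, with 9982 genes then compared. Without cells holding naive transcripts, 93 lower and 94 higher recurred, with 10120 genes compared. In UMIs per cell, 148 lower and 66 higher did. There every log2 ratio moves by the same −0.22, so all lower genes had to recur and this is no check. For the other settings the cause of the shifts was not tested, beyond the fewer or more genes compared.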

Other observations

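The barcodes left out, which the study's filter keeps, numbered 2489 in the WT and 7125 in the IFT20-KO library, with median UMIs of 1886 and 2460 and median mitochondrial shares of 10.0% and 5.55%. In them *Ift20* (log2 ratio −3.15), *Ly6a* (−3.52), *Tbx21* (−2.57), *Irf8* (−1.38) and *Gbp2* (−1.15) were lower in IFT20-KO barcodes as well, and the 36 interferon-γ response genes with enough UMIs had a median of −0.76. *Hist1h1b* (1.40) and *Nrn1* (1.19) were higher there, and *Mbnl1* was at 0.27. *Xcl1*, called higher in the kept cells, was lower in these barcodes, with a log2 ratio of −0.81 (−1.18 to −0.42). Some genes not called in the kept cells also had the other direction here. They included *Pgk1* (0.23 against −0.19 in kept cells), *Myc* (0.20 against −0.25) and *Mpc1* (0.23 against −0.11). *Ifngr1* (−0.24 against 0.26) and *Cd4* (−0.11 against 0.29) did likewise, while *Slc2a1* (−0.54) and *Slc16a3* (−0.94) stayed lower.

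A few genes, chosen after their values were seen, stood apart from any list. *Pcbp1*, encoding an RNA-binding protein, was at 446 CPM in unstimulated WT, 811 CPM in stimulated WT and 466 CPM in IFT20-KO cells, a log2 ratio of −0.80 (−0.82 to −0.78) from 90478 and 40822 UMIs. *Gm38326*, an unnamed transcript 158611 bp from *Mbnl1*, held 1 UMI in WT and 201 UMIs in IFT20-KO cells, 256-fold higher with a log2 interval of 5.50 to 13.31, and none in unstimulated WT cells. *Tbkbp1*, 20840 bp from *Tbx21*, held 111 and 9 UMIs, a log2 ratio of −3.28 (−4.44 to −2.30), and was the only one of 16 tested genes within 500 kb of *Tbx21* to be called lower.

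Of the 148 lower genes, 9 drew most of their WT UMIs from 10 cells. Beside *Ifng*, *Il4*, *Ccl1* and *Areg*, these were *Penk* (294 of 295 UMIs in 10 cells, against 5 UMIs in IFT20-KO cells), *Ccl20* (103 UMIs in 3 cells against 0), *Try5* (109 UMIs in 5 cells against 3), *Trbv21* and *B230359F08Rik*.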
